A study of Mus musculus with 27 samples.

Results

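The genes described here code for the subunits of voltage-gated sodium channels and voltage-gated calcium channels in Hedgehog-driven tumours of the mouse cerebellum. Earlier results of these data were known when this family was chosen. Its genes were taken by symbol alone, as genes named Scn with a number and an a or b, or beginning with Cacna, Cacnb or Cacng. That gave 35 of the 18194 genes with a probe set (the short oligonucleotides that measure a transcript) assigned to 1 gene. Of these, 27 passed the filter on low signals and were tested among 13527 genes.

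RNA from 27 cerebellar samples was hybridised to 1 Affymetrix array each. Tumours of 4 groups arose in mice that make SmoM2, a permanently active version of the Hedgehog signal transducer Smoothened, in cells chosen by a cre driver, and are named by that driver: Math1-cre:SmoM2 (3 arrays), Tlx3-cre:SmoM2 (3), Olig2-tva-cre:SmoM2 (7) and hGFAP-cre:SmoM2 (6). The fifth tumour group came from Ptc1+/- mice (2 arrays), which have 1 intact allele of Ptch1 (Patched, the receptor that holds Smoothened in check). The 6 control arrays held cerebellum without tumour, and every control mouse carried a tumour-model genotype: 2 were Olig2-tva-cre:SmoM2, 1 hGFAP-cre:SmoM2, 2 Mxi1-cre:SmoM2 and 1 Ptc1+/-. No wild-type cerebellum was among the controls, and Math1-cre and Tlx3-cre mice gave none of them. Math1 (Atoh1) is a gene of the granule neuron lineage, while the Olig2 and human GFAP drivers mark wider progenitor pools. The ages of the mice are not given in the sources used here. Titles call the tumours biological replicates but name no animals. The p-values reflect only how these samples vary, which may be partly technical.

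Signals are given on the log2 scale after all arrays were brought to a common mean, because their 2% trimmed means ran from 42.58 to 206. Signals under 10.32 were raised to that floor (3.37 on the log2 scale). Some arrays stood apart: 6 of the 7 dimmest were Olig2 arrays 3 to 7 and Ptc1+/- array 2, with hGFAP array 4 the other one. Control array 1, Olig2 arrays 3 and 4 and hGFAP arrays 4 and 6 had the 5 highest 3' to 5' signal ratios of the Gapdh and Actb control probe sets, a measure of RNA quality. A gene was called at a limma p under 0.05 after Benjamini-Hochberg adjustment over all genes tested. Differences compare the same probe set between samples, and the levels of different genes on an array are not comparable. In bulk tissue, fewer cells of a type and less RNA per cell cannot be told apart.

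Voltage-gated sodium channels open when a neuron is depolarised and carry the rising phase of the action potential. Each has a large pore subunit (Scn1a, Scn2a, Scn3a, Scn8a and relatives) and smaller beta subunits that set its gating and anchoring. Voltage-gated calcium channels turn depolarisation into calcium entry, which drives transmitter release, dendritic spikes and gene expression. Their pore subunits (Cacna1 genes) are either high-voltage-activated, needing strong depolarisation and partnered by alpha2delta (Cacna2d) and beta (Cacnb) subunits, or low-voltage-activated. Most members of the gamma family (Cacng) instead act as auxiliary proteins of AMPA-type glutamate receptors. In the cerebellum these genes are best known for the firing of Purkinje cells and for release at granule cell synapses. Mutations of Cacna1a, Cacna2d2, Cacnb4 and Cacng2 cause the ataxia and seizures of the tottering, ducky, lethargic and stargazer mice.

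The promoters of 3 pairs of members, called in the same or in opposite directions, and of Cacnb4 are shown. Scn2b and Scn4b are neighbours that were both lower in tumours, Cacng7 and Cacng8 are neighbours called in opposite directions (Cacng7 with 1 of its 2 probe sets), and Cacna2d2 and Cacna2d1 are paralogs called in opposite directions. Cacnb4 had more than 1 annotated promoter. The one shown was the only member promoter with the Gli motif letters GACCACCCA, which the other Cacnb4 promoters lacked. Each sequence is the 250 bases before the annotated start, from RefSeq on the mouse build GRCm38.p6, written 5′ to 3′ on the strand of the gene, with capitals marking the motif letters searched.
Scn2b, chr9:45117626-45117875, strand +: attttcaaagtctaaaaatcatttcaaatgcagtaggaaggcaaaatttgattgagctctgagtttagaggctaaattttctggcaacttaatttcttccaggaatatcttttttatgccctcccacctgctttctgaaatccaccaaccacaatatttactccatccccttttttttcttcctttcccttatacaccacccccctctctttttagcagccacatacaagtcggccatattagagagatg
Scn4b, chr9:45138374-45138623, strand +: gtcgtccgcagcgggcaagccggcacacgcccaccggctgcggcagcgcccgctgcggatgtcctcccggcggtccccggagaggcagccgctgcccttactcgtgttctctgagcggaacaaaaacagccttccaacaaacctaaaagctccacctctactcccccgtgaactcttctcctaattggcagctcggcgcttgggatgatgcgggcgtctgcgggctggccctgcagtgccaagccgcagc
Cacng7, chr7:3332575-3332824, strand +: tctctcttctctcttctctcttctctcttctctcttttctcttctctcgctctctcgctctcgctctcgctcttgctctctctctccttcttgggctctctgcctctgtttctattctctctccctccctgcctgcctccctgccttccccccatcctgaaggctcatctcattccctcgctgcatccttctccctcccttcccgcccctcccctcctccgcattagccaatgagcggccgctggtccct
Cacng8, chr7:3393792-3394041, strand +: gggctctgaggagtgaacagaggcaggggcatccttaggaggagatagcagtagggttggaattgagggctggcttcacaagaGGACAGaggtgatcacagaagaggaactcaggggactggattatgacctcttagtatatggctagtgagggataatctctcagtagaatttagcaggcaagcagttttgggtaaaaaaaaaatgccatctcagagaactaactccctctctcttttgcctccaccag
Cacna2d2, chr9:107399630-107399879, strand +: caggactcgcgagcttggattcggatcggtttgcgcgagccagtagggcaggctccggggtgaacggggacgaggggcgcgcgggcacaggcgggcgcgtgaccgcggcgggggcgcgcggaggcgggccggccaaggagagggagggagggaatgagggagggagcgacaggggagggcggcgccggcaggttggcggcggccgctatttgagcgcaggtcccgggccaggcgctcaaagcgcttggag
Cacna2d1, chr5:15934441-15934690, strand +: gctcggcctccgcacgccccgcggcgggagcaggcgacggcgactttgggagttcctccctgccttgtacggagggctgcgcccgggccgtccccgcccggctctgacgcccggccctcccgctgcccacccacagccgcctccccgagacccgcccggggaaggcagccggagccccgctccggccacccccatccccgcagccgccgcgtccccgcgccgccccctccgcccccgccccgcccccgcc
Cacnb4, chr2:52675860-52676109, strand -: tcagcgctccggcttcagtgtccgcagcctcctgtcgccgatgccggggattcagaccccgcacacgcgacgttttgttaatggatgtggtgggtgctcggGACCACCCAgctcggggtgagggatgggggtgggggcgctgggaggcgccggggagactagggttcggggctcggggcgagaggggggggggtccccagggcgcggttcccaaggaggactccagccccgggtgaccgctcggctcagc

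RefSeq promoters of 300 bases, which add 50 bases after the start, were found for 27 of the 35 genes (37 promoters). Scn3a, Scn3b and Cacng4, all called higher in tumours, were among the genes without a promoter entry. Letters were searched on both strands, and none of the searched strings contains another. The RE1 element is the site of the neuronal gene repressor REST. Its first-half letters TTCAGCACC were in 0 of the 37 member promoters and in 0.371% of all 32851 promoters, and its second-half letters GGACAG were in 16.2% of member and 22.2% of all promoters. The Gli letters were in 1 member promoter (2.70%) and in 0.253% of all promoters. The E-box letters CAGCTG, which read the same on both strands, were in 13 member promoters (35.1%) and 16.3% of all. A match describes letters and not a bound site. Promoters differed widely in base composition, counted over the 300 bases and not over the 250 shown. The Scn2b promoter held 38.3% G and C and the Cacna2d1 promoter 80.0%. The median was 57.3% over the member promoters and 52.7% over all promoters. The 18 promoters of members lower in tumours had a median of 58.7%.

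Across all tumours, each group having equal weight, most of the sodium and calcium channel genes that changed were lower than in cerebellum without tumour. Of the 27 genes tested, 14 fell (51.9%, against 25.6% of all genes tested) and 5 rose (18.5%, against 26.8% of all genes tested). The deepest falls were in Scn2b, Scn2a, Scn1a and Cacna2d2, with differences of -4.72, -4.52, -4.46 and -4.16, or from 17.8-fold to 26.4-fold. Arrays raised to the floor make the sizes of Scn1a and Cacna2d2 lower bounds. Scn3b, Cacna2d1, Scn3a, Cacng4 and Cacng8 rose, by 1.20 to 2.39. Of these 5, Scn3b, Scn3a and Cacng8 passed the filter on low signals only through tumour arrays. Their highest controls, at 5.04, 4.36 and 4.51, were below its level, a signal of 45.56 before log2. Scn4b, which fell, needed control arrays to pass. The filter and these calls are therefore not independent. All 14 lower and 5 higher calls were kept without the filter. The median difference was -0.70 over the 27 members and 0.02 over all 13527 genes.

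The groups were fully separated for 12 members. In 10 of the 27 (37%, against 9.68% of all genes tested) every tumour array lay below every control array: Scn1a, Scn2a, Scn8a, Scn2b, Scn4b, Cacna1e, Cacna1g, Cacna2d2, Cacnb2 and Cacnb4. In 2 (7.41%, against 8.14%), Scn3b and Cacna2d1, every tumour array lay above every control array. Averaged over the 14 members that fell, control arrays stood between 8.83 and 9.27 and tumour arrays between 5.07 and 7.35. Averaged over the 5 that rose, controls stood between 5.43 and 5.71 and tumours between 6.59 and 7.79. Those averages describe the called genes and are not a test.

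**Figure D1:**
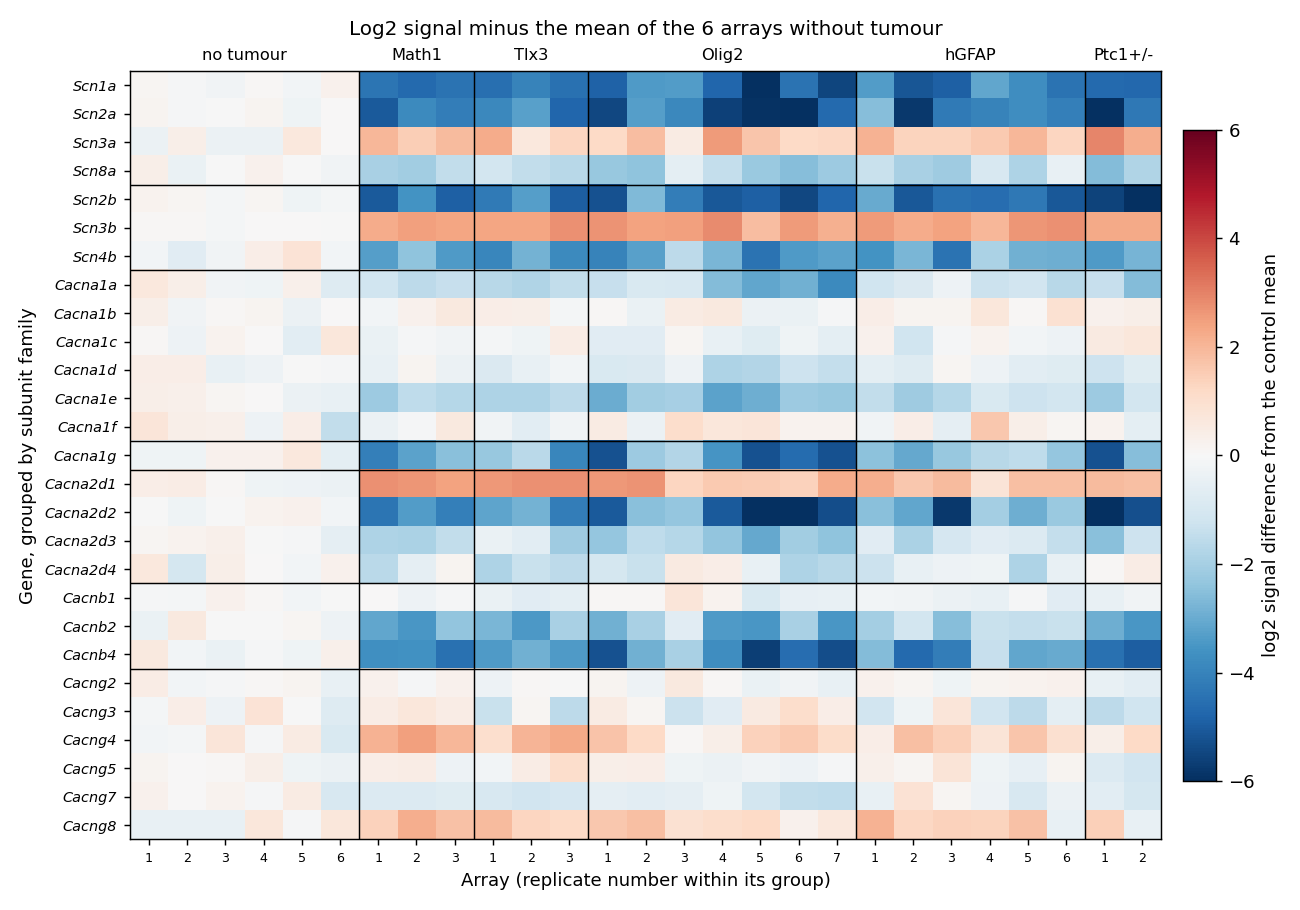
Log2 signal of the 27 tested genes (rows, grouped by subunit family) on the 27 arrays (columns, by group and replicate number), each minus the mean of the 6 control arrays; blue is lower and red is higher, and the scale stops at 6 in each direction. The blue rows of Scn1a, Scn2a, Scn2b, Cacna2d2 and Cacnb4 run through all 21 tumour arrays, and the red rows of Scn3b and Cacna2d1 do so too.

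Markers of the mature neurons of the cerebellum moved in the same direction as the members that fell. All 7 tested Purkinje cell markers were lower in tumours (median -4.85), as were all 8 of mature granule neurons (median -4.57) and all 6 of GABAergic interneurons (median -3.82). The mean log2 signal of the Purkinje list ran from 10.61 to 11.23 in controls and from 4.40 to 8.10 in tumours. That of the granule neuron list ran from 11.17 to 11.62 and from 5.84 to 8.92. Pcp2, a defining Purkinje marker, was at the floor on 1 tumour array. Conversely all 7 granule neuron precursor markers were higher (median 4.69), among them the factor Atoh1, which rose by 4.69. Another of them, Insm1, had 4 of 6 controls at the floor and needed tumour arrays to pass the filter. Marker calls were not checked without the filter. The part of these cell types in the channel results was not tested.

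The other lists varied. Oligodendrocyte markers were lower in 6 of 6 (median -2.75), oligodendrocyte precursor markers higher in 4 of 5 (median 1.38), and microglia and macrophage markers higher in 7 of 7 (median 2.71). Of 7 astrocyte and Bergmann glia markers, 6 were lower and 1, Gfap, was higher. Endothelial markers were lower in 1 of 4, mural and smooth muscle markers in 2 of 3, and 1 of 2 skeletal and heart muscle markers, Actc1, was higher. limma called 0 of 4 choroid plexus markers, and Ttr, the classic choroid plexus transcript, varied widely among controls (7.10 ± 3.22, SD, n = 6).

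**Figure D2:**
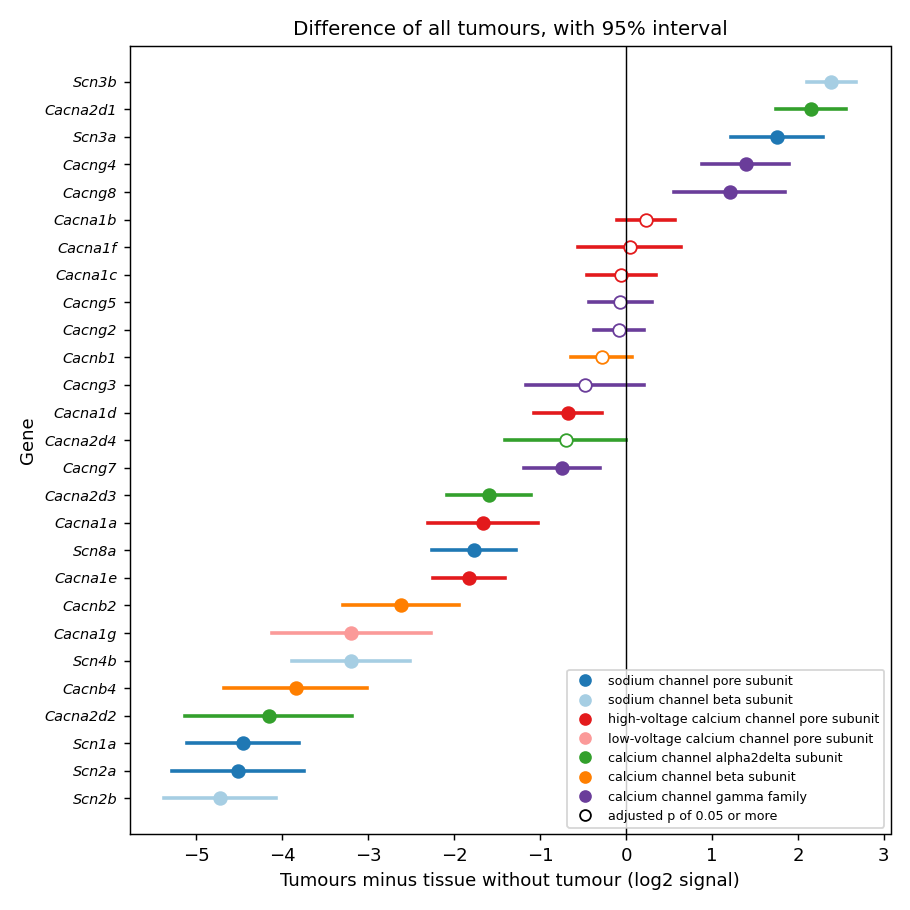
Difference between all tumours and cerebellum without tumour on the log2 scale (points) with its 95% interval (lines) for the 27 tested genes, coloured by subunit family; open points were not called. Scn2b stands lowest at -4.72 and Scn3b highest at 2.39, and the sodium channel and gamma families have filled points on both sides of 0.

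Of the 4 sodium channel pore subunits tested, 3 fell and 1 rose. Scn1a codes for the channel that sustains firing in inhibitory neurons and Purkinje cells and is mutated in Dravet syndrome. In Scn1a the control arrays ran from 9.70 to 10.16 (median 9.89). The Scn1a signals were 5.51, 5.25 and 5.47 in Math1 tumours and 5.38, 5.90 and 5.44 in Tlx3 tumours, and 5.25 and 5.20 in Ptc1+/- tumours. Scn1a ran from 3.37 to 6.53 (median 5.13) in Olig2 and from 4.76 to 6.80 (median 5.82) in hGFAP tumours. No tumour array came within 2 log2 units of a control array, and 1 Olig2 array was at the floor. Scn1a fell by 4.46 in log2 signal (limma adjusted p = 1.77e-12, SE 0.32), a signal at least 22.0-fold lower. Scn2a codes for a channel of unmyelinated and immature axons, such as the parallel fibres of granule cells. In Scn2a the control arrays ran from 10.43 to 10.86 (median 10.69). The Scn2a signals were 5.64, 6.88 and 6.55 in Math1 tumours and 6.82, 7.44 and 5.91 in Tlx3 tumours, and 4.53 and 6.40 in Ptc1+/- tumours. Scn2a ran from 4.52 to 7.39 (median 5.24) in Olig2 and from 4.90 to 8.14 (median 6.62) in hGFAP tumours. The highest tumour array, an hGFAP tumour at 8.14, lay below the lowest control at 10.43. Scn2a fell by 4.52 in log2 signal (limma adjusted p = 2.98e-11, SE 0.37), a 22.9-fold lower signal.

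Scn8a, the channel of axon initial segments and nodes and a source of resurgent current in Purkinje cells, fell less. Its control arrays ran from 9.93 to 10.69 (median 10.32) and its tumour arrays from 7.73 to 9.87, so that the groups met without crossing. The Scn8a difference was -1.77 (SE 0.24, limma adjusted p = 2.78e-07). Scn3a, which codes for a sodium channel of the embryonic and newborn brain, went the other way. In Scn3a the control arrays ran from 3.37 to 4.36 (median 3.55). The Scn3a signals were 5.72, 5.17 and 5.61 in Math1 tumours and 5.94, 4.33 and 5.01 in Tlx3 tumours, and 6.62 and 5.87 in Ptc1+/- tumours. Scn3a ran from 4.19 to 6.27 (median 4.97) in Olig2 and from 5.02 to 5.78 (median 5.16) in hGFAP tumours. The floor held 3 of the 6 controls, and only the lowest tumour arrays, at 4.19 and 4.33, fell below the highest control at 4.36. Scn3a rose by 1.76 in log2 signal (limma adjusted p = 1.72e-06, SE 0.26), a 3.38-fold higher signal. With controls at the floor that difference is a lower bound.

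Sodium channel beta subunits split in the same way, with 2 lower and 1 higher. Scn2b codes for a beta subunit that is linked to the pore by a disulfide bond and is found at nodes and initial segments of mature neurons. In Scn2b the control arrays ran from 10.59 to 11.09 (median 10.86). The Scn2b signals were 5.84, 7.27 and 5.97 in Math1 tumours and 6.62, 7.56 and 5.93 in Tlx3 tumours, and 5.29 and 4.54 in Ptc1+/- tumours. Scn2b ran from 5.39 to 8.20 (median 5.97) in Olig2 and from 5.76 to 7.81 (median 6.32) in hGFAP tumours. All tumour arrays lay at least 2 log2 units below all control arrays, and both Ptc1+/- arrays lay below every SmoM2 array. Scn2b fell by 4.72 in log2 signal (limma adjusted p = 3.75e-13, SE 0.32), a 26.4-fold lower signal. Scn4b codes for a beta subunit whose tail can block the open pore and so shape resurgent current in Purkinje cells. In Scn4b the control arrays ran from 7.13 to 8.62 (median 7.64). The Scn4b signals were 4.51, 5.38 and 4.40 in Math1 tumours and 3.89, 4.96 and 3.97 in Tlx3 tumours, and 4.41 and 5.00 in Ptc1+/- tumours. Scn4b ran from 3.37 to 6.26 (median 4.55) in Olig2 and from 3.37 to 5.90 (median 4.90) in hGFAP tumours. The highest tumour array, in the Olig2 group, lay below the lowest control, and 2 tumour arrays were at the floor. Scn4b fell by 3.20 in log2 signal (limma adjusted p = 3.07e-09, SE 0.33), a signal at least 9.18-fold lower.

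Scn3b, a beta subunit with high expression in the embryonic brain, had the smallest spread among controls of the 27 genes tested. In Scn3b the control arrays ran from 4.84 to 5.04 (median 4.98). The Scn3b signals were 7.17, 7.42 and 7.35 in Math1 tumours and 7.33, 7.31 and 7.68 in Tlx3 tumours, and 7.23 and 7.23 in Ptc1+/- tumours. Scn3b ran from 6.83 to 7.78 (median 7.40) in Olig2 and from 6.94 to 7.70 (median 7.44) in hGFAP tumours. The lowest tumour array, at 6.83, stood above the highest control, at 5.04, and the 5 tumour group means lay within 0.21 of each other. Scn3b rose by 2.39 in log2 signal (limma adjusted p = 2.02e-14, SE 0.14), a 5.24-fold higher signal. It was the only tested sodium channel beta subunit that rose.

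Among the 6 high-voltage-activated calcium channel pore subunits tested, 3 fell and 3 were not called. Cacna1e, the R-type channel, ran from 7.89 to 8.69 (median 8.38) in controls and from 5.11 to 7.42 in tumours, with no overlap. The Cacna1e difference was -1.83 (SE 0.20, limma adjusted p = 9.09e-09). Cacna1a, the P/Q-type channel that carries most of the calcium current of Purkinje cells and release sites, ran from 8.18 to 9.59 (median 9.02) in controls and from 5.17 to 8.69 in tumours. Of the tumour arrays, hGFAP array 3, at 8.69, was the only one inside the control range. Cacna1a differed by -1.67 (SE 0.31, limma adjusted p = 4.46e-05).

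Cacna1d, an L-type channel that opens at comparatively low voltages, fell by 0.67 (SE 0.19, limma adjusted p = 0.0042), with tumour arrays from 5.97 to 7.95 and controls from 7.38 to 8.22. Cacna1b, the N-type channel of release sites in many young neurons, differed by 0.23 (95% interval -0.10 to 0.56, adjusted p = 0.247 by limma). Cacna1c, the main L-type channel of brain and heart, differed by -0.06 (-0.46 to 0.34, limma adjusted p = 0.838). For Cacna1f, the L-type channel of photoreceptors, the difference was 0.04 (-0.56 to 0.64, limma adjusted p = 0.921). All 3 had tumour arrays on both sides of the control median.

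One low-voltage-activated pore subunit was tested. Cacna1g codes for the T-type channel behind the low-threshold bursts of Purkinje cells and deep nuclear neurons. In Cacna1g the control arrays ran from 8.01 to 9.23 (median 8.61). The Cacna1g signals were 4.52, 5.41 and 6.10 in Math1 tumours and 6.32, 6.99 and 4.68 in Tlx3 tumours, and 3.37 and 6.07 in Ptc1+/- tumours. Cacna1g ran from 3.37 to 6.84 (median 4.00) in Olig2 and from 5.55 to 7.08 (median 6.31) in hGFAP tumours. All tumour arrays lay below all control arrays, and 4 were at the floor. Cacna1g fell by 3.20 in log2 signal (limma adjusted p = 6.93e-07, SE 0.45), a signal at least 9.16-fold lower. Since values at the floor are raised to it, the size is a lower bound.

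The alpha2delta subunits, which bring calcium channels to the cell surface, were called in both directions. Cacna2d2, the gene mutated in the ducky mouse and strong in Purkinje cells, fell. In Cacna2d2 the control arrays ran from 9.26 to 9.81 (median 9.50). The Cacna2d2 signals were 5.15, 6.18 and 5.44 in Math1 tumours and 6.39, 6.69 and 5.38 in Tlx3 tumours, and 3.37 and 4.27 in Ptc1+/- tumours. Cacna2d2 ran from 3.37 to 7.20 (median 4.51) in Olig2 and from 3.76 to 7.51 (median 6.83) in hGFAP tumours. The tumour values spanned over 4 log2 units and 3 arrays were at the floor, yet the highest lay below the lowest control at 9.26. Cacna2d2 fell by 4.16 in log2 signal (limma adjusted p = 1.64e-08, SE 0.48), a signal at least 17.8-fold lower. Cacna2d1, the binding site of gabapentin and a receptor for the astrocyte proteins called thrombospondins, rose. In Cacna2d1 the control arrays ran from 7.82 to 8.59 (median 8.07). The Cacna2d1 signals were 10.91, 10.81 and 10.58 in Math1 tumours and 10.75, 10.92 and 10.91 in Tlx3 tumours, and 10.05 and 9.95 in Ptc1+/- tumours. Cacna2d1 ran from 9.44 to 10.83 (median 9.71) in Olig2 and from 8.92 to 10.35 (median 9.97) in hGFAP tumours. The lowest tumour array, in the hGFAP group, stood above the highest control, and the Tlx3 and Math1 groups had the highest means. Cacna2d1 rose by 2.15 in log2 signal (limma adjusted p = 2.56e-10, SE 0.20), a 4.43-fold higher signal.

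Cacna2d3 fell by 1.60 (SE 0.24, limma adjusted p = 1.64e-06), with controls from 7.74 to 8.59 and tumours from 5.25 to 7.91, where 1 Tlx3 array reached into the control range. Cacna2d4, best known from the retina, differed by -0.70 (95% interval -1.40 to -0.00) and was not called (limma adjusted p = 0.088). That call depended on the setting: without control array 2, which at 4.14 was the lowest control, the Cacna2d4 difference was -0.92 (adjusted p = 0.0339).

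Of the 3 beta subunits of calcium channels tested, which bind the pore subunit from the cytoplasm and promote channel assembly, 2 fell. Cacnb4, mutated in the lethargic mouse, is the beta subunit most linked to the cerebellum. In Cacnb4 the control arrays ran from 10.60 to 11.56 (median 10.87). The Cacnb4 signals were 7.28, 7.34 and 6.51 in Math1 tumours and 7.59, 8.08 and 7.57 in Tlx3 tumours, and 6.52 and 6.06 in Ptc1+/- tumours. Cacnb4 ran from 5.34 to 9.02 (median 6.43) in Olig2 and from 6.30 to 9.58 (median 7.92) in hGFAP tumours. No tumour array reached a control level, and the highest, at 9.58, was hGFAP array 4. Cacnb4 fell by 3.84 in log2 signal (limma adjusted p = 3.48e-09, SE 0.41), a 14.4-fold lower signal. Cacnb2 codes for a beta subunit known from heart and retina. In Cacnb2 the control arrays ran from 6.45 to 7.45 (median 6.85). The Cacnb2 signals were 3.75, 3.37 and 4.49 in Math1 tumours and 4.11, 3.39 and 4.91 in Tlx3 tumours, and 3.95 and 3.37 in Ptc1+/- tumours. Cacnb2 ran from 3.37 to 6.16 (median 3.97) in Olig2 and from 4.31 to 5.74 (median 5.47) in hGFAP tumours. The groups did not overlap, with 4 tumour arrays at the floor. Cacnb2 fell by 2.62 in log2 signal (limma adjusted p = 1.05e-07, SE 0.33), a signal at least 6.13-fold lower. Cacnb1, the beta subunit of skeletal muscle that is also made in brain, differed by -0.28 (95% interval -0.64 to 0.07) and was not called (limma adjusted p = 0.178).

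In the gamma family 2 genes rose, 1 fell and 3 were not called among 6 tested. Cacng4 codes for an AMPA receptor partner that is found early in brain development and in glia. In Cacng4 the control arrays ran from 6.18 to 7.84 (median 7.02). The Cacng4 signals were 9.17, 9.57 and 9.11 in Math1 tumours and 8.14, 9.15 and 9.37 in Tlx3 tumours, and 7.47 and 8.29 in Ptc1+/- tumours. Cacng4 ran from 7.20 to 8.80 (median 8.28) in Olig2 and from 7.52 to 8.92 (median 8.31) in hGFAP tumours. Most tumour arrays were above the controls, with overlap at the bottom of the Olig2, hGFAP and Ptc1+/- groups. Cacng4 rose by 1.39 in log2 signal (limma adjusted p = 2.38e-05, SE 0.25), a 2.62-fold higher signal. Cacng8, an AMPA receptor partner of the forebrain, had low signals. In Cacng8 the control arrays ran from 3.37 to 4.51 (median 3.57). The Cacng8 signals were 5.19, 5.99 and 5.57 in Math1 tumours and 5.71, 5.11 and 5.02 in Tlx3 tumours, and 5.23 and 3.37 in Ptc1+/- tumours. Cacng8 ran from 4.07 to 5.60 (median 4.89) in Olig2 and from 3.37 to 5.89 (median 5.19) in hGFAP tumours. Of the controls, 3 were at the floor, as were 1 hGFAP and 1 Ptc1+/- array. Cacng8 rose by 1.20 in log2 signal (limma adjusted p = 0.00206, SE 0.32), a 2.3-fold higher signal. With floor values in both groups the size is not exact.

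Cacng7, a partner of AMPA receptors of a second subclass, fell by 0.75 (SE 0.22, limma adjusted p = 0.00439). Its tumour arrays ran from 6.92 to 9.29 and overlapped the controls, which ran from 7.45 to 8.93 (median 8.56). Cacng2 (stargazin), which brings AMPA receptors to granule cell synapses, differed by -0.08 (95% interval -0.38 to 0.21, limma adjusted p = 0.655). Cacng5 differed by -0.07 (-0.44 to 0.30, limma adjusted p = 0.78). For Cacng3 the difference was -0.48 (-1.16 to 0.20, limma adjusted p = 0.239). Of the members not called, Cacng2 had the narrowest interval.

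**Figure D3:**
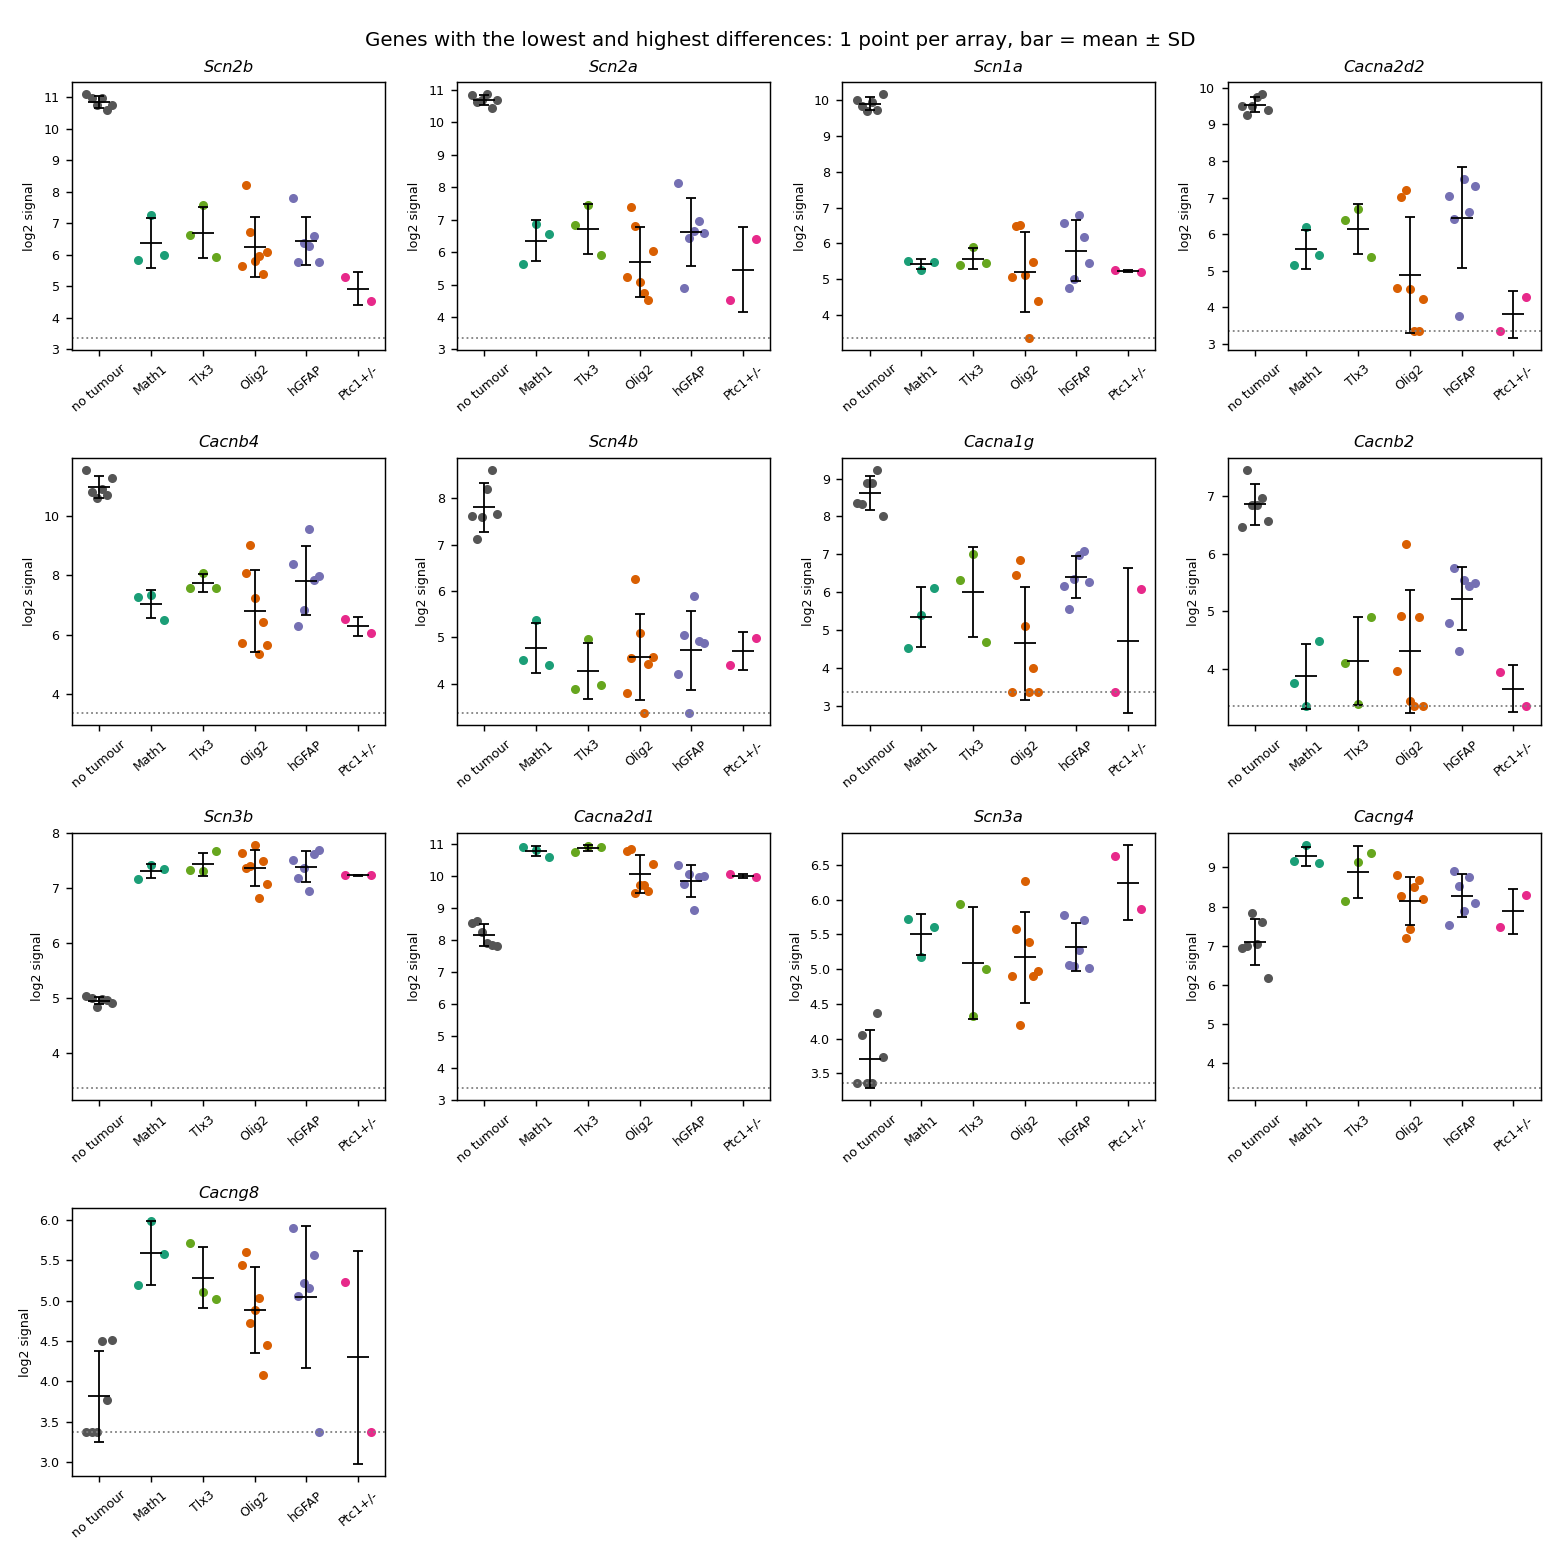
Log2 signal of the 8 genes with the lowest and the 5 with the highest differences among those called, with 1 point per array in 6 groups on the horizontal axis; bars are the mean ± SD and the dotted line is the floor at 3.37. Scn2b, Scn2a, Scn1a and Cacnb4 leave a gap between controls and all tumours, whereas Cacng8 overlaps.

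Each of the 8 genes left out by the filter (Scn7a, Scn9a, Scn10a, Scn11a, Cacna1h, Cacna1s, Cacng1 and Cacng6) had low signals. They include the skeletal muscle genes Cacna1s and Cacng1 and the sensory neuron genes Scn9a, Scn10a and Scn11a. Cacna1s was at the floor on 25 of 27 arrays. In a fit without the filter, 0 of the 8 were called, and their smallest adjusted p was 0.47, that of Cacna1h, with a difference of 0.29. A low array signal does not show that a gene was silent.

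Most members with several probe sets gave one answer. Of 85 probe sets, 57 passed the filter, and 16 members had more than 1 that passed. In 0 of the 16 were 2 probe sets called in opposite directions. All 5 probe sets of Cacna2d1 were called higher (differences from 1.17 to 2.17), as were both of Cacng4. Of the probe sets that passed, all 4 of Scn2a and of Scn8a and all 3 of Scn1a, Scn2b, Cacna1a and Cacnb4 were called lower. Scn3a and Cacng8 rose, and Cacna1e, Cacna2d2 and Cacnb2 fell, with the only probe set that passed among several. The Scn3a probe set that failed read 3.73 in controls and 3.78 in tumours. That of Cacng8 was at the floor on 25 of the 27 arrays. Other members were called with 1 of 2 passing probe sets. The other passing probe set of Scn3b differed by 0.53 (limma adjusted p = 0.271), that of Cacna1d by 0.00 (0.99) and that of Cacng7 by -0.18 (0.784). Cacna1c was the reverse case, with its other probe set called lower at -1.10 (limma adjusted p = 6.39e-05). The calls of Cacna1d and Cacng7 therefore held for 1 of 2 probe sets. Averaging the passing probe sets of a gene ended both, at -0.34 (limma adjusted p = 0.0579) and -0.46 (limma adjusted p = 0.108). That average left out probe sets that failed the filter, so it was no check on genes such as Scn3a and Cacng8 with 1 passing probe set.

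Each tumour group was then set against the same 6 control arrays, which the 5 comparisons share. In Math1 tumours 12 members were lower and 5 higher (18.1% and 19.3% of all genes tested were lower and higher). Tlx3 tumours had 14 lower and 5 higher (20.6% and 19.7% of all genes). In Olig2 tumours 14 were lower and 5 higher (25% and 24.7% of all genes). hGFAP tumours had 12 lower and 5 higher (19.2% and 22.5% of all genes). In Ptc1+/- tumours 14 were lower and 3 higher (18.4% and 17.9% of all genes). The share of members called lower, from 44.4% to 51.9%, was above that of all genes in each group. The share called higher, from 11.1% to 18.5%, was near or below it. Over all settings and arrays left out, the members called numbered 16 to 18 in Math1, 15 to 20 in Tlx3, 18 to 21 in Olig2, 16 to 18 in hGFAP and 13 to 20 in Ptc1+/- tumours.

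Of the tested members, 12 were called lower in all 5 groups: Scn1a, Scn2a, Scn8a, Scn2b, Scn4b, Cacna1a, Cacna1e, Cacna1g, Cacna2d2, Cacna2d3, Cacnb2 and Cacnb4. A further 3 were called higher in all 5, namely Scn3a, Scn3b and Cacna2d1. No member was called in both directions. Scn2b differed by -5.94 in Ptc1+/-, -4.43 in hGFAP, -4.60 in Olig2, -4.50 in Math1 and -4.15 in Tlx3 tumours. Scn3b was the most even, at 2.27 in Ptc1+/-, 2.43 in hGFAP, 2.41 in Olig2, 2.35 in Math1 and 2.48 in Tlx3 tumours. For Cacna2d2 the differences were -5.72 in Ptc1+/-, -3.09 in hGFAP, -4.65 in Olig2, -3.94 in Math1 and -3.38 in Tlx3 tumours.

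The remaining calls were made in some groups. Cacng4 and Cacng8 rose in the 4 SmoM2 groups and were not called in Ptc1+/- tumours, at 0.77 (limma adjusted p = 0.163) and 0.49 (adjusted p = 0.521). Cacna1d fell in Olig2 (-1.19) and Ptc1+/- tumours (-0.98), and Cacng7 in Tlx3 (-1.04) and Olig2 tumours (-0.87). Cacna2d4 was called in Tlx3 tumours, at -1.58 (limma adjusted p = 0.0145). Cacng5 was called in Ptc1+/- tumours, at -0.98 (limma adjusted p = 0.013). A call in 1 group and not in another does not show that the groups differ, which the next comparisons test. Cacna1b, Cacna1c, Cacna1f, Cacnb1, Cacng2 and Cacng3 were called in no group.

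Tumour groups were compared with each other to ask whether the driver or the mutated gene goes with different channel levels. Between hGFAP and Olig2 tumours on one side and Math1 and Tlx3 tumours on the other, limma called 0 of 27 members (0.259% of all genes were called), and 4 (with 15.5% of all genes) had a p under 0.05 before adjustment. The smallest adjusted p was that of Cacna2d1, which was 0.87 lower in hGFAP and Olig2 tumours (difference -0.87, limma adjusted p = 0.0669). Cacna2d1 lay between 10.58 and 10.92 in the 6 Math1 and Tlx3 arrays, while 2 of 13 Olig2 and hGFAP arrays reached 10.58. This value crossed the threshold when Olig2 array 1 or 2 or hGFAP array 1 was left out, with adjusted p from 0.0311 to 0.0451 (0.377% to 0.599% of all genes were then called).

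Among the 4 SmoM2 groups the moderated F test also called 0 of 27 members (0.946% of all genes), with 10 members and 21.1% of all genes under an unadjusted p of 0.05. Cacna1e came nearest (adjusted p = 0.0572), with group means from 5.80 in Olig2 to 6.90 in hGFAP tumours. Cacna2d3 followed (adjusted p = 0.0721), with its lowest mean in Olig2 (6.09) and its highest in Tlx3 (7.24). This count was 3 without Olig2 array 2 (2.51% of all genes) and 4 without Olig2 array 3 (3.36% of all genes). Cacna1e was the single call without hGFAP array 2 or either Ptc1+/- array, and Cacna2d3 without Tlx3 array 3. The lowest tumour mean was in Ptc1+/- tumours for 12 members, Olig2 for 8, Tlx3 for 6, hGFAP for 1 and Math1 for 0. This was not counted over all genes, and means of 2 Ptc1+/- arrays vary more than those of larger groups. The counts are therefore no result about the channel genes. Medians of the neuron marker lists were low in Olig2 and Ptc1+/- tumours. The median Purkinje list means were 5.72 in Olig2 and 4.94 in Ptc1+/- tumours, against 6.72 to 7.17 in the others. Olig2 arrays were spread on that list, from 4.89 to 8.10, and the latter was the highest value of any tumour array. The part of neuron content in the channel levels was not tested.

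Ptc1+/- tumours were compared with the 4 SmoM2 groups, and limma called 0 of 27 members (0.547% of all genes), with 8 members and 11.7% of all genes under an unadjusted p of 0.05. The 4 genes described next were chosen after their values were seen. Both Ptc1+/- arrays lay below all 19 SmoM2 arrays for 3 members (0.976% of all genes did so), Scn2b, Cacng2 and Cacng5. They lay above all 19 for 1 member, Cacna1c (0.68% of all genes). Cacng5 read 7.42 and 7.11 in Ptc1+/- tumours, from 7.73 to 9.30 in SmoM2 tumours and from 7.89 to 8.62 in controls. The Cacng5 difference of -1.14 (SE 0.28) had a limma adjusted p = 0.0593. It was called with quantile normalization (adjusted p = 0.0349), with the 3' to 5' ratio as a covariate (0.0426), and without any 1 of 5 arrays: Math1 array 3, Tlx3 array 1, Olig2 array 6, hGFAP array 4 or hGFAP array 5.

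Scn2b read 5.29 and 4.54 in Ptc1+/- tumours and from 5.39 to 8.20 in SmoM2 tumours, a difference of -1.52 (limma adjusted p = 0.19). Cacng2 read 8.10 ± 0.14 (SD, n = 2) against 8.23 to 9.21, a difference of -0.59 (limma adjusted p = 0.288). Cacna1c read 6.99 and 7.14 against 5.28 to 6.93, a difference of 0.81 (limma adjusted p = 0.284). With 2 Ptc1+/- arrays the intervals were wide: that of Cacna2d2 ran from -3.48 to -0.41 around -1.95 (limma adjusted p = 0.288). Scn3b was -0.15 apart, with an interval from -0.60 to 0.30.

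**Figure D4:**
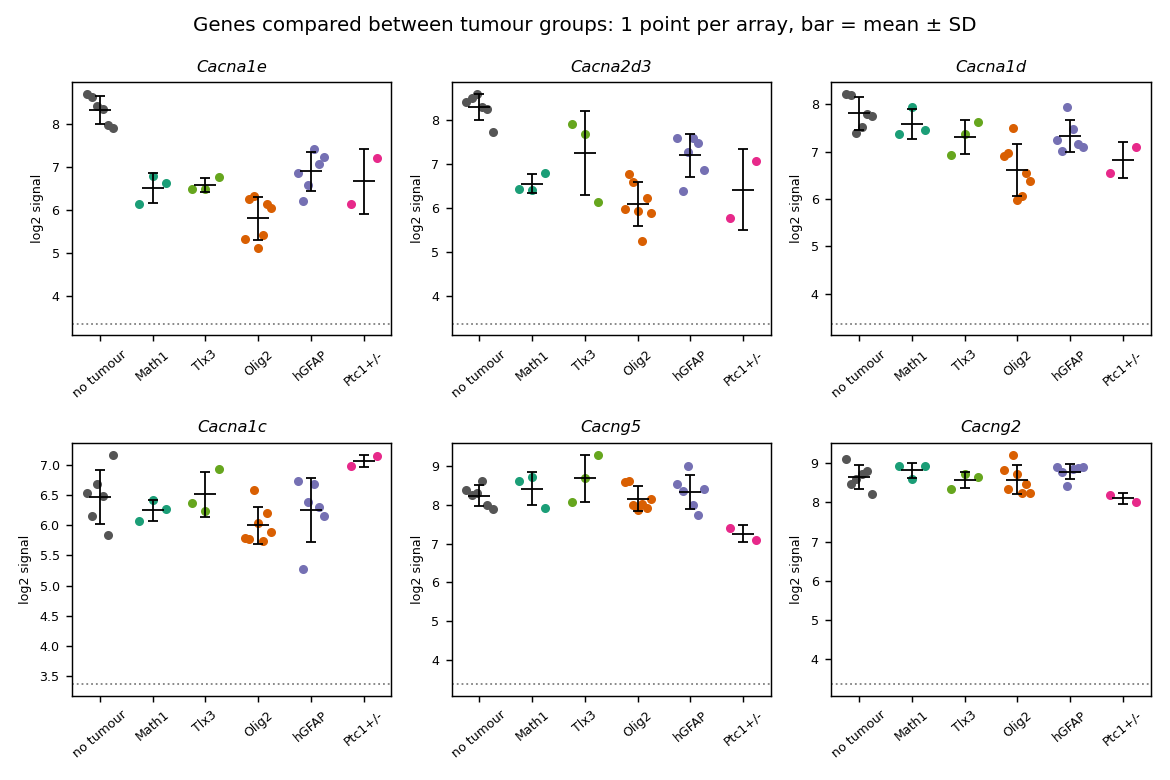
Log2 signal of 6 genes compared between tumour groups, with 1 point per array and groups on the horizontal axis; bars are the mean ± SD and the dotted line is the floor at 3.37. The 2 Ptc1+/- arrays sit below the SmoM2 arrays in Cacng5 and Cacng2 and above them in Cacna1c, and Olig2 arrays sit low in Cacna1e and Cacna2d3.

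Among the 21 tumour arrays the members that fell did not all fall to the same depth. Their mean was highest in hGFAP array 4 (7.35), Olig2 array 3 (7.25) and hGFAP array 1 (7.11). Those arrays had Purkinje list means of 7.53, 8.10 and 7.82 and granule neuron list means of 8.86, 8.84 and 8.80. The channel mean was lowest in Olig2 arrays 5 (5.07) and 7 (5.45) and in Ptc1+/- array 1 (5.59). There the Purkinje list stood at 5.37, 6.34 and 4.40 and the granule neuron list at 6.20, 7.04 and 5.84. Other arrays did not keep the same order. Olig2 array 2 had the highest granule neuron list mean of the tumours (8.92) and a channel mean of 6.92. hGFAP array 3 had a Purkinje list mean of 5.17 and a channel mean of 6.41. hGFAP array 4 and Olig2 array 3 were also among the 7 dimmest arrays and among those with the highest 3' to 5' ratios, and Olig2 arrays 5 and 7 were among the 7 dimmest too. What part neuron content, brightness or RNA quality had in this order was not tested. Across the 21 tumour arrays, signals of Scn1a and Cacnb4 had a Pearson correlation of 0.87, those of Cacna1g and Cacna2d3 0.85, and those of Cacna2d2 and Cacnb4 0.81, as a description over arrays that share scaling, brightness and tissue make-up.

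Genes of proteins that anchor, bind or regulate sodium channels were mostly lower as well. Of 15 tested, 10 fell and 1 rose (median difference -1.10). The lowest were Fgf14 (-4.12, limma adjusted p = 1.65e-08) and Fgf12 (-2.88, adjusted p = 1.32e-11), intracellular factors that bind the tail of the sodium channel pore. With 2 tumour arrays at the floor, the size of the Fgf14 fall is a lower bound. Nedd4l, a ubiquitin ligase that removes sodium channels from the membrane, rose by 1.15 (limma adjusted p = 1.21e-06). Ank3, the ankyrin that organises the initial segment, differed by -0.22 (limma adjusted p = 0.396). All 3 tested genes of the cation leak channel that sets resting excitability fell, with differences of -3.10 for Unc80, -0.72 for the pore gene Nalcn and -0.66 for Fam155a.

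At release sites, where calcium channels sit beside synaptic vesicles, 11 of 13 tested partners fell and 1 rose (median -2.06). Unc13c, a vesicle priming factor of granule cell synapses, had the lowest difference (-4.29, limma adjusted p = 2.84e-12), followed by the fusion protein Snap25 (-2.92, adjusted p = 3.18e-10). Stx1a, a fusion protein that also binds calcium channels, rose by 1.90 (limma adjusted p = 1.75e-08). Of 5 tested calcium channel regulators, which were RGK and STAC family genes and Cbarp, 4 fell and 1 rose. Stac, an adaptor of L-type channels, fell by at least 2.22 (limma adjusted p = 2.95e-06), with 5 tumour arrays at the floor. Cbarp, which dampens calcium channels, fell by 1.72 (limma adjusted p = 3.26e-08). Rrad, a small G protein that inhibits calcium channels, rose by at least 1.58 (limma adjusted p = 4.08e-05), with 5 of 6 controls at the floor. It therefore needed tumour arrays to pass the filter on low signals, so the filter and its call are not independent. Partner genes were not checked without the filter.

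Genes for calcium release and removal fell in 11 of 13 tested and rose in 0 of 13 (median -2.10). Itpr1 and Atp2b4, also on that list, were not tested. Atp2b3, a plasma membrane calcium pump, fell by 4.28 (limma adjusted p = 3.35e-11). Slc8a1, a sodium-calcium exchanger, fell by at least 3.04 (limma adjusted p = 2.46e-08), with 3 tumour arrays at the floor. Itpr2 and Slc8a2 were not called. The RE1 silencing complex represses neuronal genes in non-neuronal cells. Of 8 genes on its list, which includes Srrm4, a splicing factor of neurons that acts on Rest, 6 rose and 0 fell (median 0.85). Rcor2, a corepressor of neural progenitors, rose by 4.23 (limma adjusted p = 4.53e-14) and Hdac2, a histone deacetylase, by 1.55 (adjusted p = 2.26e-09). Rest itself differed by -0.26 (limma adjusted p = 0.411) and Srrm4 by -0.26 (adjusted p = 0.331). These counts stand beside 25.6% lower and 26.8% higher over all genes tested.

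Several members lie side by side in the genome. Scn3a, which rose, and Scn2a, which fell, are adjacent on chromosome 2, with 0 protein-coding genes between them in the RefSeq annotation, and Scn1a follows 3 genes further on. Cacng7, which fell, and Cacng8, which rose, are adjacent on chromosome 7, and Cacng4, which rose, lies beside Cacng5, which was not called. Scn2b and Scn4b, next to each other on chromosome 9, both fell.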

How the data were processed

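RNA of 27 mouse cerebellar samples in 6 groups was measured on 1 array each. Signal intensities of 45101 probe sets were deposited on a linear scale; per the submitters' processing notes, MAS5 was used. Its version and its target for scaling are not given in the sources used here. Detection calls were not used, so low values can be background, and the number of arrays limits the precision. Arrays were multiplied so that all had a 2% trimmed mean of 123.6. Signals under the 20th percentile of the table (10.32) were raised to it, and log2 was taken. Probe sets above the table median (45.56) on at least 3 arrays were kept (30107). Of 35890 annotated probe sets, 34958 had 1 gene, 932 had several and stayed unnamed, and symbols were matched by Entrez number for 34754. The probe set with the highest mean stood for each of 13527 genes. The manufacturer's 64 control probe sets entered no test, 0 value columns were unused and 0 pairs of arrays were identical.

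limma 3.58.1 (R 4.3.3) fitted 6 group means with a trend and robust moderation (degrees of freedom: 21 residual, 28.23 at the median after moderation), and p-values were two-sided except for the F test. They were adjusted by Benjamini-Hochberg over all genes. The fit was tested on simulated data. The members and all lists were chosen with earlier results of these data known. Every member was named; values by array were given for the 8 lowest and 5 highest called members, and of each partner list the 2 lowest and 2 highest called genes. The partner lists were sodium channel partners, the cation leak channel, release sites, RGK and STAC regulators with Cbarp, calcium release and removal, and the RE1 complex with Srrm4. The 12 marker lists covered cerebellar neurons, precursors, glia, vessels, muscle and choroid plexus. Alternatives changed scaling, floor, filter, probe set choice, model arrays, moderation, array weights, a replicate block, an RNA quality covariate, and the arrays kept. Replicate numbers did not pair the samples, so no block was used.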

Additional observations from a re-analysis of the deposited data

Results flagged for a closer look

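Each member was checked for a single array far from the rest of its group, in the control, Olig2 and hGFAP groups (81 sets of arrays). Chance alone marks about 1 in 20 such sets, and 3 were marked, all in hGFAP tumours. Cacna2d2 stood at 3.76 on hGFAP array 3, with the next array at 6.41. Cacng2 stood at 8.41 on the same array, with the next at 8.78. Cacng8 was at the floor of 3.37 on hGFAP array 6, with the next at 5.05.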

How the results depend on the processing

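The 14 lower and 5 higher calls in all tumours were kept under the 12 other settings, except 1, and without each of the 27 arrays in turn. The exception was the mean of the probe sets of a gene that passed the filter. There Cacna1d and Cacng7 were lost and Cacna1c was called lower (-0.58, limma adjusted p = 0.00364). Members with 1 passing probe set kept the same values under that setting. Cacna2d4 was called lower without rescaling (-1.04), with array weights (-0.73) and without the 7 dimmest arrays (-0.84), and Cacna1b was called higher with the 3' to 5' covariate (0.32). Members that were not called changed sign: Cacna1b without rescaling (-0.12), Cacna1c with the replicate block (7e-04) and over single arrays left out (-0.18 to 0.082), and Cacna1f without rescaling (-0.30), with a floor at the 30th percentile (-0.064), with array weights (-0.077), without the 7 dimmest arrays (-0.0051) and over single arrays (-0.26 to 0.19). So did Cacng2 over single arrays (-0.17 to 0.0071) and Cacng5 without the 7 dimmest arrays (0.064) and over single arrays (-0.14 to 0.0067). Between hGFAP and Olig2 and the other SmoM2 tumours, members called were 13 without rescaling (50.7% of all genes were called), 2 with array weights (3.84%), and 0 to 1 over single arrays. For Ptc1+/- against SmoM2 they were 5 without rescaling (5.72%), 1 with quantile normalization (0.932%), 1 with the 3' to 5' covariate (0.584%), and 0 to 1 over single arrays. Among SmoM2 groups they were 8 without rescaling (11.5%), 2 with the mean of probe sets (1.2%), 7 with array weights (11.4%), 1 without the 7 dimmest arrays (0.813%), 1 without the 5 arrays of highest 3' to 5' ratio (5.16%), and 0 to 4 over single arrays. Without rescaling, the median of all genes moved to -0.34 and 72.4% of calls over all genes were lower (4055 lower and 1549 higher, against 48.8% in the main setting). That setting leaves the differences in array brightness in the values. What part brightness or other causes had in these changes was not tested. Same-numbered arrays of different groups had correlations of their deviations from -0.34 to 0.28 (median 0.03, 49 pairs), and 7 of 27 arrays correlated best with their own number. The replicate block kept 14 lower and 5 higher members. Arrays at the floor limit the sizes of Scn1a, Scn3a, Scn4b, Cacna1g, Cacna2d2, Cacna2d4, Cacnb2, Cacng3, Cacng8 and most genes left out by the filter. Partner genes limited in the same way included Fgf14, Stac, Slc8a1 and Rrad.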
